A study of Mus musculus with 10 samples.

Results

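The comparison described here sets pancreatic ductal adenocarcinoma (PDAC) tumour cells of the mouse that were stimulated with interferon-γ (IFNγ) and then collected for high surface PD-L1 against unstimulated cells of the same kind collected without regard to PD-L1. It uses 7 of the 10 RNA-seq libraries of the study, 3 in the group PD-L1 high and 4 in the group untreated all. The other 3 libraries, from stimulated cells collected without regard to PD-L1 (treated all), entered the fit only to estimate the spread, and their values stand beside the others for orientation. Stimulation with recombinant mouse IFNγ lasted 20 hours, per the labels, and a TruSeq kit was used on 5 µg of RNA per library. The strain label reads C57BL/6 for untreated all and treated all and C57BL/7, C57BL/8 and C57BL/9 for the 3 PD-L1 high libraries. No genotype, cell line name, clone, passage or IFNγ dose is given, and the labels do not say whether libraries of a group stem from separate cultures, so the p-values reflect the scatter among these libraries, which may be technical. The PD-L1 high group differs from untreated all in 2 ways, the cytokine and the sort, and no unstimulated PD-L1 high group was analysed here, so the difference itself cannot be divided between stimulation and selection. The treated all values show what stimulation without the sort gave.

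IFNγ binds a receptor of IFNGR1 and IFNGR2 chains, which activate the kinases JAK1 and JAK2 and STAT transcription factors that bind a palindromic DNA element, the IFNγ-activated site (GAS). Among the direct targets is the transcription factor IRF1, which binds the interferon-stimulated response element (ISRE) in the promoters of guanylate-binding proteins, of antigen-processing genes and of chemokines. In tumour cells the same pathway raises PD-L1, encoded by Cd274, the ligand through which T cells carrying PD-1 are restrained. The promoters of 6 genes on which the results turn are shown for these elements, GAS as TTCNNNGAA and the ISRE core as GAAA, any 2 bases and GAAA, both searched on both strands. Each line is the 250 bases before the annotated start, from RefSeq on build GRCm38.p6, written 5′ to 3′ on the strand of the gene, with matches to either element in capitals. Irf1 (chr11:53769764-53770013, plus strand) is the first relay of the response, Gbp2 (chr3:142620413-142620662, plus strand) and Gbp3 (chr3:142559794-142560043, plus strand) are guanylate-binding proteins of the chromosome 3 cluster, B2m (chr2:122147437-122147686, plus strand) is the light chain of class I molecules, Cxcl10 (chr5:92348890-92349139, minus strand) is a T cell attractant and Cd274 (chr19:29367188-29367437, plus strand) encodes the sorted protein.
Irf1: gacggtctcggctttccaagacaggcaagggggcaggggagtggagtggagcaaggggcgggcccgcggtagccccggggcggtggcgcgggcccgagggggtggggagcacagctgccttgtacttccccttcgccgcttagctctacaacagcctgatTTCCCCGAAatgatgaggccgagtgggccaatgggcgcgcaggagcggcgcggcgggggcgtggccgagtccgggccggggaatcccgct
Gbp2: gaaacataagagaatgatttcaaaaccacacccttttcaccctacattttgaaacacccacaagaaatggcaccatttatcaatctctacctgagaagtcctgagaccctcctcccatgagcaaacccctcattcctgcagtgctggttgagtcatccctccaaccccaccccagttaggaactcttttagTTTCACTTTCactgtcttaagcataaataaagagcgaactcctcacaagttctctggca
Gbp3: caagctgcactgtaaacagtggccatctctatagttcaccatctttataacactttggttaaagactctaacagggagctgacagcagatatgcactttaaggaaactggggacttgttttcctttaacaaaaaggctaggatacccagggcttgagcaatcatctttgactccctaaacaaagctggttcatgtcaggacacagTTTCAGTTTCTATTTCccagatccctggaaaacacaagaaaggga
B2m: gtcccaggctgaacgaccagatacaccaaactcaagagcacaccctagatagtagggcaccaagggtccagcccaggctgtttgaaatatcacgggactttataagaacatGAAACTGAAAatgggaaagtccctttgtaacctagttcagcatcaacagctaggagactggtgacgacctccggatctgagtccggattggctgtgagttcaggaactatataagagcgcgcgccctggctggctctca
Cxcl10: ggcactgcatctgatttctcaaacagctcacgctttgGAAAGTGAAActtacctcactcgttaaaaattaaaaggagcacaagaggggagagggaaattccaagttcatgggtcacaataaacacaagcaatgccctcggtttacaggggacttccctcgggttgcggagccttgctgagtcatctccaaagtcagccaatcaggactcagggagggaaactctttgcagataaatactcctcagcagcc
Cd274: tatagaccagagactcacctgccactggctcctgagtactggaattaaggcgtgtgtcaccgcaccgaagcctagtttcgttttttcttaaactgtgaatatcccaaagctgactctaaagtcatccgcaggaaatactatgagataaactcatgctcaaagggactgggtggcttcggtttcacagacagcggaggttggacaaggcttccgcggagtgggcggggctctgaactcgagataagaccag

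The GAS match of Irf1 begins 90 bases before the start, the ISRE match of Gbp2 59 bases, that of B2m 139 bases and that of Cxcl10 213 bases before it. Gbp3 holds 2 overlapping ISRE matches, beginning 45 and 39 bases before the start. The table lists a second start for Irf1 and for Gbp3, and the windows of those starts hold neither element. The Cd274 window holds neither element, which says only that these letters are not within it.

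The 4 untreated libraries correlated with each other at 0.988 to 0.991 over genes and the 3 PD-L1 high libraries at 0.987 to 0.991, against 0.943 to 0.948 between the groups. Averaged in pairs, untreated libraries 1 and 2 lay a median of only 0.0022 from 3 and 4 on the log2 scale, against 0.052 and 0.066 for the other ways of pairing these 4 libraries. The 4 untreated libraries are therefore not taken as independent, and p-values against them are too small. The numbers of genes called, in all and at 2-fold or more, are also given without untreated libraries 3 and 4. Counts of list members are given so only where stated. In that fit 10 of 82 list counts moved by over 1.5 times. Values are the authors' normalized signal, with no stated unit or depth. Sums over genes and words such as high or low signal therefore describe the deposited values and not amounts of RNA. Of the 22 epithelial markers 16 reached a signal of 1 in some library. The summed signal of the 22 was 4545 to 4701 in untreated all and 5044 to 5112 in PD-L1 high, mostly from keratin genes. Among 20 leukocyte markers 2 reached 1 and 5, among them Cd3e, Nkg7, Klrb1c and Adgre1, were listed at 0 in every library. Their summed signal was 13.0 to 14.6 in untreated all and 21.9 to 25.3 in PD-L1 high, mostly from Cd68 and Ly6g. Ptprc, the pan-leukocyte CD45, did not pass 0.159 in any untreated library or 0.0548 in any PD-L1 high library. The summed signal of 14 fibroblast markers, of which 6 reached 1, was 179 to 194 against 156 to 163, mostly from Col3a1. That of 10 endothelial markers was 17.0 to 17.7 against 12.4 to 13.6, nearly all from the only 1 that reached 1. That of 16 acinar and endocrine markers, 10 of them at 0 in every library, was 14.2 to 18.3 against 21.2 to 28.9. Of these 3 reached 1, Cela1, Amy2a5 and Prss2. Each sum is thus carried by few genes and does not describe a change of its whole list.

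Across the transcriptome the PD-L1 high cells differed from untreated cells by a set of genes that rose many-fold and by a wide field of small decreases. Of 11487 genes tested, 2189 (19.1%) were higher and 4711 (41.0%) lower in PD-L1 high at an adjusted p under 0.05, 6900 (60.1%) in all. At 2-fold or more the balance was the other way, with 301 genes (2.62%) higher and 92 (0.801%) lower, and at 4-fold or more 138 (1.20%) were higher and 6 (0.0522%) lower. Without untreated libraries 3 and 4 the calls fell to 5060 (44.0%), of which 1661 (14.5%) were higher and 3399 (29.6%) lower, while 296 (2.58%) were at least 2-fold higher and 87 (0.757%) at least 2-fold lower. Of the 301 genes 295 were also called at least 2-fold higher in that fit, and of the 92 genes 83 were called at least 2-fold lower. Because untreated libraries 1 and 2 average nearly the same as 3 and 4, the differences themselves could hardly move in that fit. The agreement at 2-fold is therefore no separate support, and mainly the p-values could change. In 2298 genes (20.0%) all 3 PD-L1 high libraries lay above all 4 untreated ones, and in 4802 (41.8%) all 3 lay below.

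The direction of the small differences depended on scale. The median difference over all tested genes was -0.10 on the log2 scale as deposited, -0.049 after upper-quartile scaling and -0.006 after median-ratio scaling, which gave 3216 genes higher and 3154 lower in place of 2189 and 4711. Upper-quartile scaling gave 2722 higher and 3823 lower. The genes at least 2-fold higher held 1.05 to 1.06% of the library signal in untreated all, 5.12 to 5.13% in treated all and 5.62 to 5.63% in PD-L1 high. The genes at least 2-fold lower held 0.483 to 0.499% in untreated all, 0.153 to 0.165% in treated all and 0.185 to 0.186% in PD-L1 high. Both sets were chosen by their difference between untreated all and PD-L1 high, so a change of their share between these groups follows from that choice. Because the direction depended on scale, small differences in the gene lists below are read beside the median over all tested genes. Counts of list members are likewise read beside the shares of all tested genes, 19.1% higher and 41.0% lower as deposited. A gene near 0 in untreated cells passed the threshold for testing, a mean signal of 1 over the 10 libraries, only through the stimulated libraries, so counts of list members describe the tested members and support no more than that. In what follows, ± after a mean is the SD over the libraries of its group (n = 4 for untreated all, n = 3 for PD-L1 high and treated all), ± after a log2 difference is its SE, and differences are PD-L1 high minus untreated all on the log2(signal + 1) scale, which understates the change of genes with low signal.

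**Figure D1:**
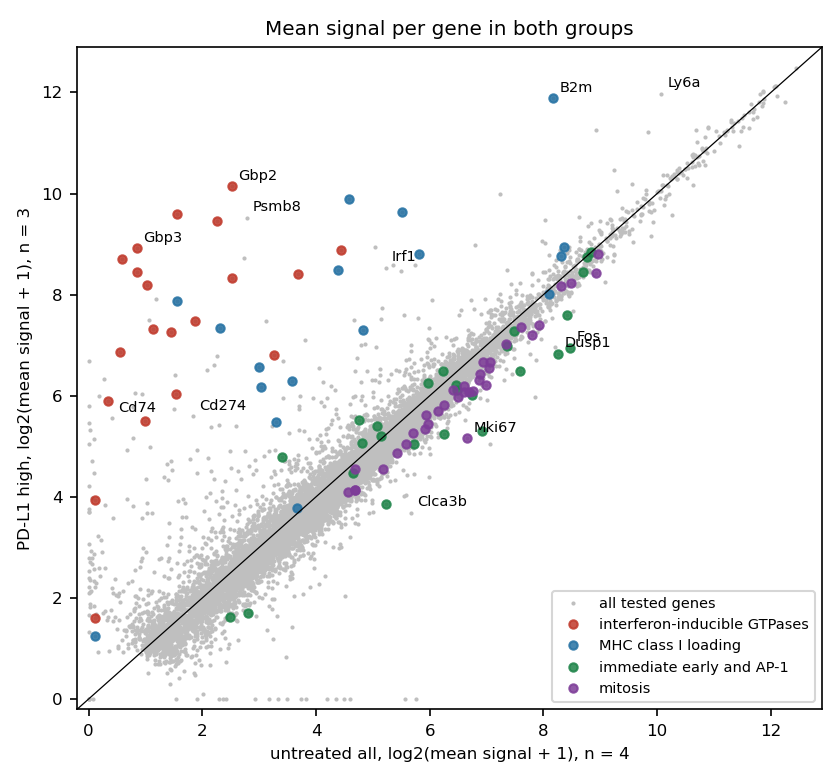
Mean signal of each of the 11487 tested genes in untreated all (horizontal axis, n = 4) and PD-L1 high (vertical axis, n = 3), both as log2(mean signal + 1), with members of 4 gene lists in colour and the diagonal marking equal signal. The GTPase genes and most class I genes lie far above the diagonal, the mitosis genes lie just below it, and Fos, Dusp1 and Clca3b are among the genes below it.

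Cd274 itself was 2.601, 2.53, 2.79 and 2.39 in untreated all and 48.5, 46.2 and 47.7 in PD-L1 high, a mean of 2.58 ± 0.167 (SD, n = 4) against 47.5 ± 1.17 (SD, n = 3). The groups did not overlap, and the ratio of the means was 18.4. The PD-L1 high cells were collected for the protein this gene encodes, so the difference describes the sort and the stimulation and is not a finding. In treated all, collected without regard to PD-L1, the signal was 33.6, 32.2 and 33.2, between the other groups and nearer to PD-L1 high. Pdcd1lg2, the gene of PD-L2, was listed at 0 in every untreated and every PD-L1 high library and was not tested.

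The genes of the IFNγ receptor differed by little, and several transcription factor genes below it, Irf1 among them, rose by far more. Ifngr1, the ligand-binding chain, was 120.1, 122, 119 and 122 in untreated all and 135, 134 and 139 in PD-L1 high, a log2 difference of 0.17 ± 0.022 (SE) with an adjusted p of 7.4e-05. Ifngr2, the signalling chain, rose by 0.36 ± 0.058 (SE) on the log2 scale (adjusted p = 0.00034) from a mean of 30.2 ± 1.93 to 38.8 ± 1.26. Jak2 rose by 0.31 ± 0.038 (SE) (adjusted p = 3.8e-05), whereas Jak1 gave -0.057 ± 0.033 (SE) (adjusted p = 0.16) and did not pass the test. Both receptor genes stayed within 1.5-fold of untreated all.

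Irf1, the first relay, was 35.3, 37.2, 38.9 and 33.9 in untreated all and 378, 362 and 371 in PD-L1 high. The groups were an order of magnitude apart, with a log2 difference of 3.32 ± 0.039 (SE) and an adjusted p of 5.8e-14. Treated all, at 529.7, 525 and 536, lay above both. Batf2, a basic leucine zipper partner of IRF1, was listed at 0 in all 4 untreated libraries and at 39.8, 45.1 and 43.5 in PD-L1 high. Nlrc5, the transactivator of class I genes, was 0, 0, 0.0145 and 0.0733 in untreated all and 35.9, 39.5 and 41.4 in PD-L1 high. Its class II counterpart Ciita stood at 0, 0, 0.0223 and 0 and 4.901, 5.33 and 4.16. Both transactivators were near 0 in every untreated library and well above it in every PD-L1 high library, with log2 differences of 5.29 ± 0.061 (SE) and 2.52 ± 0.083 (SE) and adjusted p of 4.8e-14 and 6.4e-10. The genes of the type I interferon factor ISGF3 also rose, Stat2 by 2.67 and Irf9 by 2.15 on the log2 scale, as did Irf7 by 3.28.

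Of the feedback inhibitors, Socs1, which blocks JAK kinases, was 1.89, 1.45, 1.904 and 1.47 in untreated all and 10.4, 10.4 and 9.99 in PD-L1 high. It rose by 2.07 ± 0.083 (SE) (adjusted p = 3.6e-09), and treated all lay between at 6.71, 5.75 and 5.82. Socs3, an inhibitor best known downstream of interleukin-6, rose only by 0.19 ± 0.022 (SE) (adjusted p = 2.7e-05), from 121 ± 1.82 to 138 ± 3.23. Usp18, which restrains type I interferon signalling, rose by 2.24, and the phosphatase gene Ptpn2 by 0.21 on the log2 scale. Its relative Ptpn11 gave -0.17, a call that was lost under median-ratio scaling (adjusted p = 0.11). Over the whole list of IFNγ receptor and signalling genes 17 of 23 tested members rose and 1 fell, with a median of 0.66 beside -0.10 for all genes. Irf8, also listed, lay under the threshold for testing.

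The interferon-inducible GTPases, large and small GTP-binding proteins that attack the vacuoles of intracellular microbes, gave the largest differences in the data. All 20 tested members rose, 20 of them at least 2-fold, with a median log2 difference of 5.81, and Mx1 lay under the threshold. Gbp3 was 0.535, 0.9701, 0.823 and 0.867 in untreated all and 480.2, 484 and 482 in PD-L1 high, and Gbp2, whose promoter is shown above, was 3.99, 4.87, 5.05 and 5.098 and 1110.1, 1122 and 1150.4. Untreated cells had little of either transcript and every PD-L1 high library had far more, with log2 differences of 8.07 ± 0.068 (SE) and 7.62 ± 0.060 (SE) (adjusted p = 3.2e-15 and 2.5e-15). Gbp2b rose by 8.17, Gbp4 by 7.63 and Gbp10 by 6.33.

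Among the immunity-related GTPases, Igtp (Irgm3) was 3.72, 3.74, 4.001 and 3.74 in untreated all and 706, 694 and 696 in PD-L1 high, a difference of 7.19 ± 0.026 (SE). Tgtp1 and Tgtp2, near-identical neighbours, rose by 8.06 and 7.18, and reads may have been split between them. Irgm1, a regulator of the other members, already stood at 21.2, 20.4, 20.6 and 21.1 in untreated cells and rose to 474, 474 and 474, by 4.44. The smallest rise of the list, 1.49, was that of Mx2, an antiviral dynamin-like GTPase, from 0.140, 0.180, 0 and 0 to 1.87, 2.58 and 1.67. In all 20 genes the treated all mean was also above that of untreated all, with a median difference of 5.54.

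Most genes of antigen presentation on class I molecules rose. Of 17 tested genes 14 rose and 0 fell, with a median of 2.99 and H2-Q6 and Cd1d1 under the threshold, and of 8 genes of the immunoproteasome and its activator 6 rose and 2 fell, with a median of 2.48. Psmb8 and Psmb9, catalytic subunits that replace their constitutive counterparts, rose from 5.86 ± 0.195 to 736 ± 7.91 and from 1.28 ± 0.192 to 240.3 ± 2.75 (SD, n = 4 and 3), log2 differences of 6.75 ± 0.026 (SE) and 6.73 ± 0.056 (SE). Psmb10, the third such subunit, rose by 3.23. The activator subunits Psme1 and Psme2 rose by 2.20 and 2.75, whereas Psme3 and Psme4, which belong to other activators, fell by 0.20 and 0.17 on the log2 scale. The call of Psme4 was lost without untreated libraries 3 and 4 (adjusted p = 0.095), without untreated library 4 alone (0.05), without PD-L1 high library 2 (0.073) and under both scalings. Under median-ratio scaling 1 of these 8 genes was called lower.

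Tap1, one chain of the transporter that carries peptides into the endoplasmic reticulum, was 1.53, 2.11, 2.35 and 1.77 in untreated all and 234, 239 and 225 in PD-L1 high. All PD-L1 high libraries lay far above all untreated ones, with a log2 difference of 6.32 ± 0.080 (SE) and an adjusted p of 1e-13. Its partner Tap2 rose by 3.58, the peptide editors Tapbp and Tapbpl by 2.99 and 3.14, and Erap1, which trims peptides, by 2.71. Of the heavy chains, H2-K1 went from 22.8 ± 2.499 to 953 ± 11.97 and H2-D1 from 44.8 ± 1.34 to 792 ± 1.64, log2 differences of 5.33 and 4.12. The non-classical H2-Q4 and H2-T23 rose by 5.03 and 4.09. Class I heavy chain genes are close relatives and the counting of shared reads is not described, so their values are uncertain one by one.

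B2m, the light chain common to all of them, was 288, 284, 287 and 287 in untreated all and 3816, 3851 and 3753 in PD-L1 high. That is a 13.3-fold rise of a gene already at high signal (log2 difference 3.73 ± 0.014 (SE), adjusted p = 4.6e-18), and treated all stood at 3430.2, 3451 and 3379. The general chaperones of the endoplasmic reticulum moved far less, Calr by 0.58 and Pdia3 by 0.46. Canx gave -0.069 (adjusted p = 0.084) and passed the test only without untreated library 2 (0.032) or PD-L1 high library 1 (0.033) among the fits that left out 1 library.

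Class II genes, which professional antigen-presenting cells express and IFNγ can switch on elsewhere, were near 0 in untreated cells. Cd74, the invariant chain, was 0.342, 0.278, 0.353 and 0.338 in untreated all and 45.8, 46.3 and 45.9 in PD-L1 high. The 2 groups shared no value, with a log2 difference of 5.14 ± 0.045 (SE) (adjusted p = 4.6e-15), and treated all stood at 43.7, 45.5 and 42.6. The peptide-exchange chains H2-DMa and H2-DMb1 rose by 3.33 and 3.54, and the class II chains H2-Ab1, H2-Aa and H2-Eb1 by 3.16, 2.24 and 2.15. The promoter-binding factors that work with CIITA did not pass the test, with 0.15 for Rfx5, 0.08 for Rfxank and -0.0025 for Rfxap, although Rfx5 and Rfxank passed it under median-ratio scaling (0.24 and 0.17). In all 7 of 12 tested genes rose and 1, Ifi30, fell, with a median of 1.15, and median-ratio scaling called 10 higher and 0 lower. Ctss and H2-Oa lay under the threshold. Of the leukocyte markers, the 2 that were tested, Cd68 and Ly6g, were also called higher, by 0.67 and 0.70 (adjusted p = 6.4e-06 and 5.6e-06), and Ptprc, Itgam and Adgre1 were at or near 0 in the PD-L1 high libraries. The part of other cells in the class II rises was not tested.

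**Figure D2:**
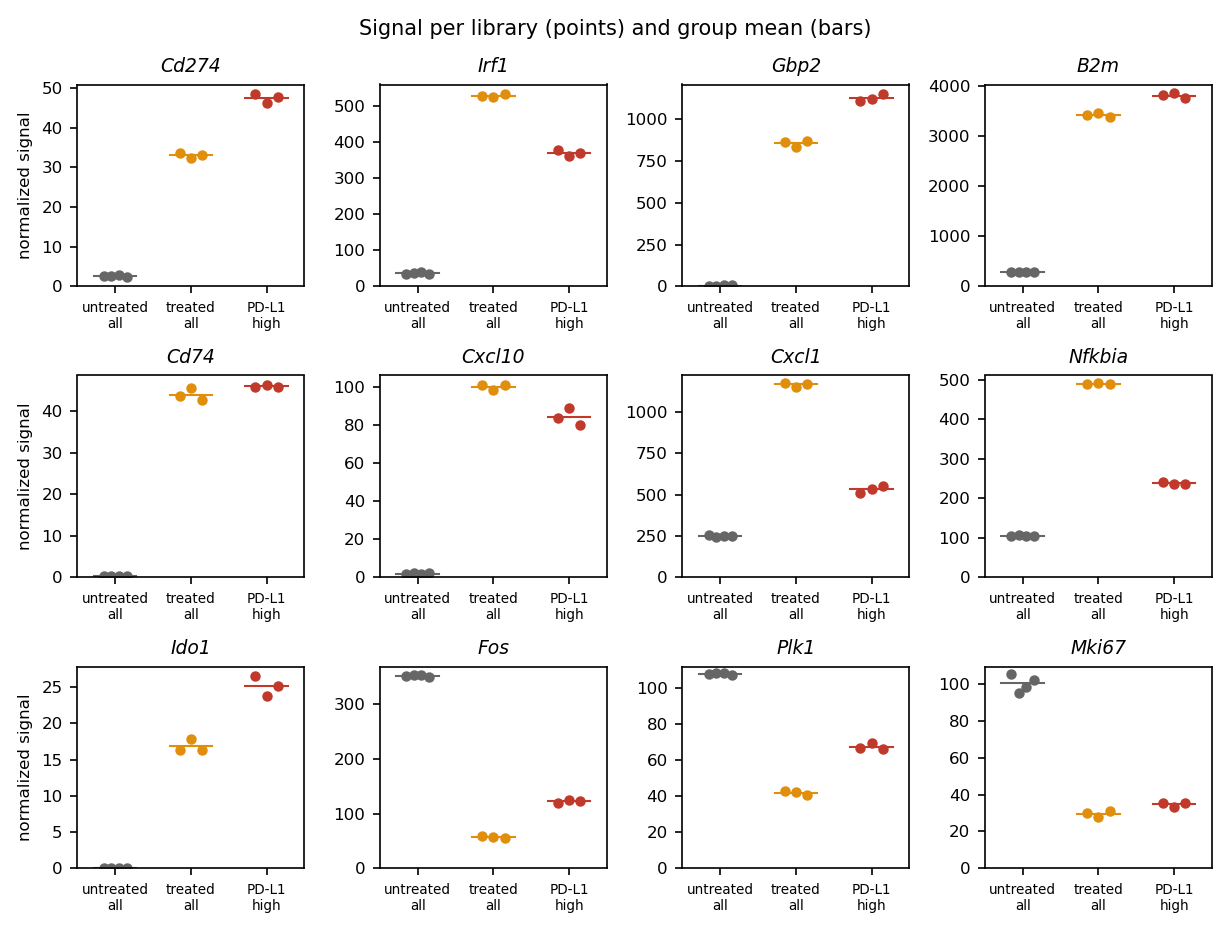
Normalized signal of 12 genes in each library (points) with the group mean (bars) for untreated all (n = 4), treated all (n = 3) and PD-L1 high (n = 3), each panel on its own linear axis from 0. PD-L1 high lies above untreated all in the first 9 panels and below it for Fos, Plk1 and Mki67, and treated all lies outside the other groups for Irf1, Cxcl10, Cxcl1, Nfkbia, Fos, Plk1 and Mki67.

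Antiviral effectors usually linked to type I interferon rose as a group. Of 33 tested 30 rose, 25 of them at least 2-fold, and 2 fell, with a median of 2.02, while Oas1g, Rsad2 and Ifi44l lay under the threshold. Rtp4 was 0.558, 0.876, 0.622 and 0.959 in untreated all and 66.9, 67.3 and 62.5 in PD-L1 high, a difference of 5.25 ± 0.078 (SE). Oasl2, Isg15, a ubiquitin-like protein, and Xaf1 rose by 4.54, 4.44 and 4.42. Bst2 (tetherin), which holds budding virus on the cell surface, was 32.02, 31.3, 32.4 and 31.4 in untreated all and rose to 481, 491 and 507. Samhd1, which depletes nucleotides, rose by 2.85 and Adar, which edits double-stranded RNA, by 1.26. The interferon-inducible membrane proteins split, with Ifitm3 up by 1.21 from a mean of 606 ± 8.75 and Ifitm1 and Ifitm2 down by 0.26 and 0.25 on the log2 scale. These were the only members that fell, and they fell under median-ratio scaling too.

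Several Ifit genes, whose proteins bind viral RNA, lay lower in treated all than in PD-L1 high. Ifit3 was 0.5798, 0.607, 0.573 and 0.632 in untreated all, 17.9, 17.9 and 18.6 in treated all and 29.4, 29.7 and 29.3 in PD-L1 high. Ifit1, Ifit3b and Ifit1bl1 had means of 0.0275, 0.133 and 0.0457 in untreated all, 4.03, 2.85 and 3.97 in treated all and 6.61, 5.01 and 5.93 in PD-L1 high. Ifit3 and Ifit3b are close copies, so reads may have been shared.

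Of 17 tested nucleic acid and microbial sensors 15 rose and 1 fell, with a median of 1.67. Zbp1, a sensor of Z-form nucleic acid that can start necroptosis, was 0.257, 1.77, 1.55 and 0.759 in untreated all and 179.8, 180.5 and 179 in PD-L1 high, the largest difference of the list at 6.51 ± 0.24 (SE) (adjusted p = 4.9e-08). The RNA sensors Ifih1 (MDA5), Ddx58 (RIG-I) and Dhx58 (LGP2) rose by 1.98, 1.79 and 2.18, the DNA pathway adaptor Sting1 by 1.19, and Nod1, a sensor of peptidoglycan, by 2.05. Ifi207, of the IFI200 family, rose by 2.65, and Aim2 gave -0.0094 (adjusted p = 0.92). Mavs, the adaptor of the RNA sensors, gave -0.12, a call that was lost without untreated libraries 3 and 4 (adjusted p = 0.11) and under median-ratio and upper-quartile scaling (0.56 and 0.11). Tlr4, the receptor of bacterial lipopolysaccharide, gave 0.29, and its call was lost without untreated libraries 3 and 4 (0.12), without untreated library 2 or 3 alone (0.1 and 0.094) and without any single PD-L1 high library (0.067, 0.13 and 0.077).

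In the PARP and Schlafen families 10 of 11 tested genes rose and 1 fell. Parp9 and its ubiquitin ligase partner Dtx3l rose by 3.25 and 2.82, Parp14 by 3.23 and Parp12 by 3.17. Slfn2 went from 65.1 ± 1.203 to 238 ± 1.16. The gene that fell, Slfn10-ps, is a pseudogene with a mean of 3.40 in untreated all and 1.37 in PD-L1 high. Of 20 ubiquitin-like modifiers and related enzymes 14 rose and 1 fell. The conjugation enzyme of ISG15, Ube2l6, rose by 3.29, and Ubd (FAT10), which targets proteins to the proteasome, was listed at 0 in all 4 untreated libraries and at 11.6, 13.3 and 11.1 in PD-L1 high.

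The chemokines that draw T cells through CXCR3 and other receptors rose in most cases. Of 7 tested T cell chemokines 6 rose and 0 fell, with a median of 1.80, while Cxcl11, Ccl7 and Ccl8 lay under the threshold. Cxcl10 was 1.59, 2.04, 1.74 and 2.12 in untreated all, 83.6, 89.01 and 79.7 in PD-L1 high and 101, 98.4 and 101 in treated all, with a log2 difference of 4.89 ± 0.066 (SE) (adjusted p = 1.7e-13). The related CXCR3 ligand Cxcl9 was 0.0700, 0.0200, 0 and 0 in untreated all and 3.80, 4.11 and 4.35 in PD-L1 high, present in each stimulated library but at low signal. Ccl5, an attractant of T cells, was 1.197, 0.625, 1.29 and 0.599 in untreated all, 6.66, 6.61 and 6.61 in treated all and 10.5, 12.6 and 9.99 in PD-L1 high, a difference of 2.65 ± 0.13 (SE). Ccl2, which attracts monocytes and T cells, rose by 1.80, and Ccl20 gave 0.08 with an adjusted p of 0.57.

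Myeloid chemokines and growth factors rose in 9 of 12 tested genes and fell in 2, with a median of 0.90. Cxcl1, a neutrophil attractant, was 256, 244, 252 and 248 in untreated all and 513, 535 and 555 in PD-L1 high, a 2.14-fold rise (log2 difference 1.09 ± 0.026 (SE), adjusted p = 3.9e-11). Treated all stood at 1174, 1153 and 1171, above every PD-L1 high library. The same order held for Cxcl2, with means of 7.997, 71.3 and 28.9 in untreated all, treated all and PD-L1 high, and for the cytokine genes Lif (13.7, 66.5 and 34.4), Il6 (4.05, 19.1 and 9.104) and Csf2 (4.21, 17.9 and 10.6). Cxcl5, an attractant made at high signal by these cells, rose by 0.76 and did not follow that order. Il33, an alarmin, fell by 1.04 on the log2 scale from 21.7 ± 0.361 to 10.01 ± 0.239, and Ppbp fell by 0.73.

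The genes of the NF-kB pathway and its targets, many of which encode inhibitors of the pathway, gave a like pattern. In PD-L1 high 15 of 18 tested genes rose and 0 fell, with a median of 0.30. The median difference of treated all from the same untreated libraries was 0.79. Nfkbia, which encodes the inhibitor IκBα, was 104, 106, 104 and 106 in untreated all, 489, 492 and 489 in treated all and 241, 236 and 237 in PD-L1 high. PD-L1 high lay between the other groups, with a difference from untreated all of 1.17 ± 0.018 (SE) (adjusted p = 4.2e-13). Tnfaip3 (A20), a deubiquitinase that ends the signal, rose by 1.15 with means of 17.5, 99.7 and 39.98 in the same order of groups. Icam1, an adhesion ligand of leukocytes, rose by 1.12 and Sod2, the mitochondrial superoxide dismutase, by 0.86.

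**Figure D3:**
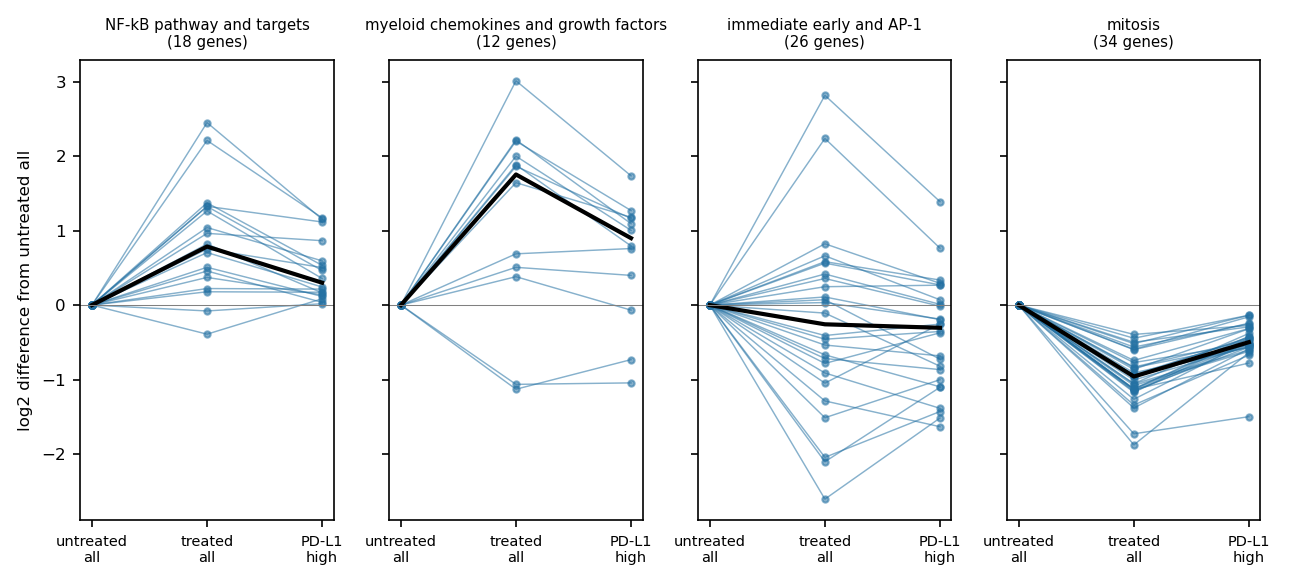
Difference of each gene's mean log2(signal + 1) from untreated all (set to 0) in treated all and in PD-L1 high, for 4 gene lists, with thin lines for genes and the thick line for the list's median. Both differences share the untreated libraries. The NF-kB and myeloid medians are higher in treated all than in PD-L1 high (0.79 and 0.30 for NF-kB), and the mitosis median is lower in treated all (-0.96 and -0.50).

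Genes of checkpoint ligands and immunosuppression differed from one another, with 10 of 20 tested higher, 6 lower and a median of 0.09. Over all tested genes 19.1% were higher and 41.0% lower. Median-ratio scaling called 12 of the 20 higher and 3 lower. Ido1, which degrades tryptophan and thereby starves T cells, was 0.0138, 0.04097, 0.0281 and 0.102 in untreated all and 26.5, 23.8 and 25.1 in PD-L1 high. The difference was 4.64 ± 0.061 (SE) (adjusted p = 1.3e-13), and treated all stood at 16.4, 17.8 and 16.4, lower than every PD-L1 high library. Its paralog Ido2 rose by 3.03, and Wars, the tryptophan tRNA synthetase, by 2.97 from 43.98 ± 1.52 to 352 ± 3.43. Nos2, which makes nitric oxide from arginine, was 1.66, 1.77, 1.71 and 1.73 in untreated all, 16.7, 15.8 and 16.5 in treated all and 24.98, 25.6 and 25.4 in PD-L1 high. Il18bp, a soluble trap for interleukin-18, rose by 5.01, and Tnfrsf14 (HVEM), the ligand of the inhibitory receptor BTLA, by 2.93.

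Other ligands that restrain lymphocytes or phagocytes differed by far less. Cd47, the signal that inhibits phagocytosis, rose by 0.49 and Lgals9, a ligand of TIM-3, by 0.48. The transforming growth factor genes Tgfb1 and Tgfb2 fell by 0.36 and 0.62 on the log2 scale, and Cd276 (B7-H3) by 0.19. Pvr, a ligand of TIGIT, gave 0.08 (adjusted p = 0.09) as deposited and 0.18 (adjusted p = 0.00071) under median-ratio scaling. Nectin2, another TIGIT ligand, gave 0.11, and its call was lost without untreated libraries 3 and 4 (0.14), without untreated library 1, 3 or 4 alone (0.059, 0.056 and 0.06) and without PD-L1 high library 1 (0.11). Of 20 tested genes whose proteins act on PD-L1 protein itself 11 fell and 5 rose, near the 41.0% and 19.1% of all tested genes (9 and 6 under median-ratio scaling), with a median of -0.17 beside -0.10 for all genes. Hip1r, which directs PD-L1 to lysosomes, rose by 0.78 and B3gnt3, a glycosyltransferase of PD-L1, by 0.62. The deubiquitinase gene Usp22 fell by 0.58, while Cmtm6, the stabiliser of PD-L1 at the membrane, gave 0.052 (adjusted p = 0.32) as deposited and 0.15 (adjusted p = 0.005) under median-ratio scaling.

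Effectors of cell death rose in 17 of 28 tested genes and fell in 4, with a median of 0.28. Casp1, the inflammasome caspase, was 2.76, 2.72, 2.17 and 3.39 in untreated all and 19.5, 22.8 and 21.3 in PD-L1 high, a rise of 2.57 ± 0.098 (SE) (adjusted p = 2.5e-09). Fas, the death receptor, rose by 2.35 and Tnfsf10 (TRAIL), a death ligand, by 2.09. The pore-forming Gsdmd and Mlkl, effectors of pyroptosis and necroptosis, rose by 1.35 and 1.74. Gsdme, another pore-forming gasdermin, fell by 0.30. Of 12 tested complement genes 7 rose and 3 fell. The proteases of the C1 complex, C1s1 and C1ra, rose by 2.58 and 2.15 and factor B (Cfb) by 1.66, while clusterin (Clu) fell by 0.82. Cfd (factor D) was 8.11, 13.7, 12.3 and 9.88 in untreated all and 2.83, 0.459 and 1.801 in PD-L1 high, a difference of -2.24 ± 0.54 (SE) with no call without untreated libraries 3 and 4 (adjusted p = 0.059).

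Several genes of high signal rose on this background. Ly6a (Sca-1) was 1076, 1079.5, 1066 and 1084 in untreated all and 3986, 4054 and 4042 in PD-L1 high, a 3.74-fold rise, and its neighbour Ly6c1 rose 5.09-fold. Plac8, a cysteine-rich protein gene of epithelial and immune cells, was 905, 917, 904 and 913 in untreated all and 2346, 2364 and 2413 in PD-L1 high, a 2.61-fold rise. In all 3 genes treated all lay between the other groups, with means of 3469, 2192 and 1997. Ly6 genes are close relatives, and Ly6g, counted above among leukocyte markers, is one of them.

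**Figure D4:**
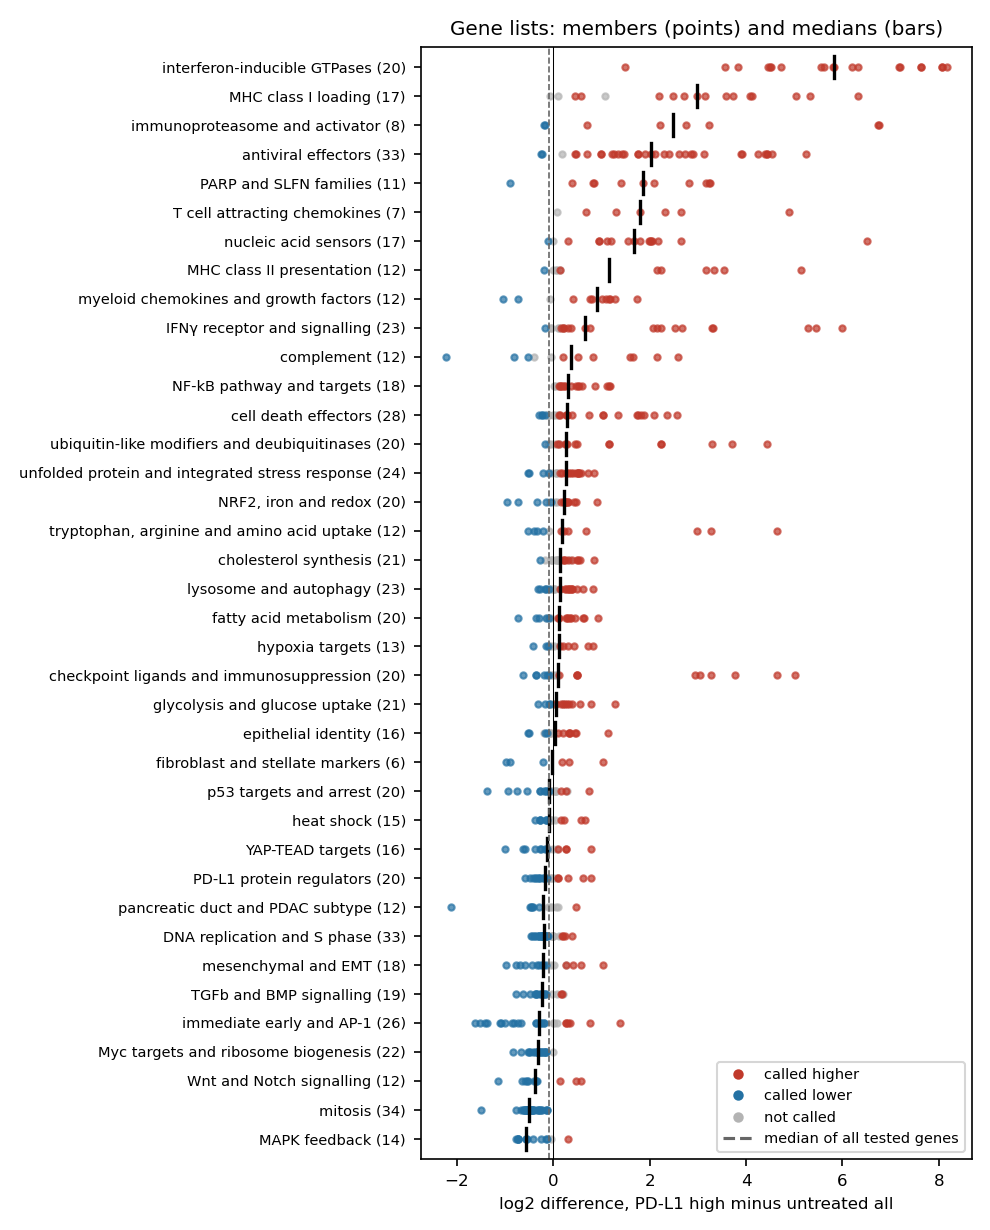
Log2 difference between PD-L1 high and untreated all for every tested member of the gene lists with at least 6 tested members (points, coloured by call), with list medians as bars, the number tested in brackets and the median of all tested genes as a dashed line. The GTPase list (median 5.81) stands highest and the MAPK feedback list (median -0.56) lowest.

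Among the genes that fell, immediate early genes, which growth factors and stress switch on within minutes, gave several of the larger changes. Of 26 tested 17 fell, 7 of them at least 2-fold, and 6 rose (15 and 9 under median-ratio scaling), with a median of -0.30. Fos was 352, 354, 353 and 351 in untreated all, 120.1, 125 and 123 in PD-L1 high and 59.1, 57.1 and 55.3 in treated all. PD-L1 high lay between the other groups, with a difference from untreated all of -1.52 ± 0.025 (SE) (adjusted p = 1e-12). Fosb was 121, 120.4, 119.7 and 121 in untreated all and 39.9, 35.9 and 38.9 in PD-L1 high, a difference of -1.63 ± 0.042 (SE), and its treated all mean was 48.8. Dusp1, a phosphatase of MAP kinases, fell by 1.43 on the log2 scale, Egr1 by 1.10 and Btg2 by 1.38. Gadd45b went the other way, 8.47, 10.5, 9.71 and 9.35 in untreated all and 25.6, 26.2 and 27.6 in PD-L1 high, with treated all higher still at 74.6, 71.1 and 72.7.

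Other lists of signalling and stress genes differed by smaller amounts, and the activity of the pathways was not measured. Of 14 tested feedback genes and targets of the MAP kinase pathway 12 fell and 1, Dusp6, rose, with a median of -0.56. Dusp5 went from 59.02 ± 3.198 to 33.8 ± 2.04, Spry4, a feedback inhibitor of receptor tyrosine kinases, from 8.72 ± 0.164 to 4.82 ± 0.367, and the growth factor gene Areg from 22.8 ± 0.862 to 13.3 ± 1.74. Under median-ratio scaling 10 of the 14 were lower. The counts of the next 2 lists were near the shares of all tested genes, 41.0% lower and 19.1% higher. Targets of YAP and TEAD fell in 8 of 16 and rose in 4 (6 and 6 under median-ratio scaling), led by Ccn2 (CTGF), which fell by 1.001, and by Nuak2, which rose by 0.79. Heat shock genes gave 4 higher and 7 lower of 15 (5 lower under median-ratio scaling), with Hspa1a up by 0.66 and Hsf1 down by 0.38. Hspa1a and Hspa1b are near-identical copies.

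Genes of mitosis were lower throughout. All 34 tested members fell, 1 of them at least 2-fold, with a median of -0.50, and 31 were lower under median-ratio scaling. Plk1, a mitotic kinase, was 108, 109, 108 and 107 in untreated all and 66.5, 69.5 and 66.3 in PD-L1 high, a difference of -0.67 ± 0.027 (SE) (adjusted p = 3.9e-09), and treated all stood at 42.8, 42.4 and 40.95, below every PD-L1 high library. Mki67, the proliferation antigen Ki-67, was 106, 95.3, 98.4 and 102 in untreated all, 30.1, 27.8 and 30.9 in treated all and 35.6, 33.5 and 35.5 in PD-L1 high, the widest difference of the list at -1.50 ± 0.046 (SE). Bub1b, a checkpoint kinase, fell by 0.78, and Ccnf, cyclin F, by 0.64. The median difference of treated all from the same untreated libraries was -0.96. In bulk libraries fewer cells in mitosis and less RNA per cell cannot be told apart.

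Genes of the earlier cell cycle differed less. Of 33 genes of DNA replication and S phase 22 fell and 4 rose, with a median of -0.21, and 15 fell and 7 rose under median-ratio scaling. Pola1 and Pole, catalytic subunits of replicative polymerases, fell by 0.46 and 0.44, and E2f2 rose by 0.40. Of 22 Myc targets and ribosome biogenesis genes 21 fell and 0 rose (16 and 1 under median-ratio scaling), with Cad, the first enzyme of pyrimidine synthesis, down by 0.84 and the pseudouridine synthase gene Dkc1 by 0.68. Of 20 p53 targets and arrest genes 3 rose and 10 fell, near the shares of all tested genes (19.1% and 41.0%). Without untreated libraries 3 and 4 the counts were 2 and 5, and under median-ratio scaling 5 and 6. Cdkn2b, an inhibitor of cyclin-dependent kinases, fell by 0.93 and Trp53inp1 rose by 0.73, while Cdkn1a (p21) gave 0.028 (adjusted p = 0.75).

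The promoter of Mki67 (chr7:135716380-135716629, minus strand) and that of Ccnf (chr17:24251410-24251659, minus strand) are shown for the cell cycle homology region (CHR), TTTGAA, searched on both strands and in capitals, through which many mitotic genes are repressed outside G2 and M phase. Each is again the 250 bases before the start from RefSeq on GRCm38.p6.
Mki67: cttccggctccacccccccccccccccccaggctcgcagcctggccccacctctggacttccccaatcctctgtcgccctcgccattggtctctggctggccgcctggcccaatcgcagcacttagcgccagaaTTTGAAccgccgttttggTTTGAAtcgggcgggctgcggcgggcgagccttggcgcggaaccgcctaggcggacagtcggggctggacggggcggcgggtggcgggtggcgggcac
Ccnf: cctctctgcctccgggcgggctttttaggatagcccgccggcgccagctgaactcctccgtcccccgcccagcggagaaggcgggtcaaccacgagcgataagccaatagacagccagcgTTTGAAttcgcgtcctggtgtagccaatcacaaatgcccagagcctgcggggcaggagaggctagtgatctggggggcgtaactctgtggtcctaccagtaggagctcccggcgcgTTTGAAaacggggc

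The 2 matches of Mki67 begin 116 and 98 bases before the start and those of Ccnf 130 and 14 bases before it. In windows of 300 bases around the start, 250 before and 50 after, 69.0% of 29 windows of mitosis genes held a CHR, against 11.8% of the windows of tested genes. E2F letters (TTTGGCGC or TTTCCCGC) were in 30.0% of 30 windows of the S phase genes, against 3.05%. These shares describe the lists' promoters and are independent of how much a gene fell.

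The single largest falls were mostly of genes with low signal or uneven untreated libraries. Pagr1a was 17.1, 2.94, 8.67 and 11.7 in untreated all and 0.566, 1.74 and 0 in PD-L1 high, a difference of -2.57 ± 0.51 (SE) (adjusted p = 0.0025). Ccdc191 was 7.10, 36.2, 24.03 and 19.8 and 4.19, 2.399 and 2.65, and Lyst, a lysosomal trafficking regulator, 2.96, 12.5, 8.76 and 6.902 and 1.28, 1.47 and 1.97. In these 3 genes the groups did not overlap, but the untreated values spread over a range of more than 4-fold, and all 3 calls were lost in a fit of only the PD-L1 high libraries and untreated libraries 1 and 2 (adjusted p of 0.1, 0.11 and 0.092 in the order given). Prr14l was listed at 0 in all 3 PD-L1 high libraries and at 1.26, 4.11, 1.43 and 4.12 in untreated all. The replication-dependent histone genes H3c10 and H4c8 fell from means of 3.01 and 4.36 to 0.0665 and 0.652.

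Clca3b, Spink4, Hic1 and Fbln2 fell with more even untreated libraries, although Spink4 had low signal that varied among the PD-L1 high libraries. Clca3b, of a family of secreted epithelial proteins first named as chloride channel regulators, was 51.02, 48.7, 49.02 and 50.3 in untreated all and 12.3, 11.4 and 11.9 in PD-L1 high, a difference of -1.98 ± 0.039 (SE) (adjusted p = 6.3e-12). Spink4, a secreted protease inhibitor of mucous cells, was 7.94, 9.06, 8.10 and 8.93 and 0.501, 2.04 and 1.29. Hic1, a transcriptional repressor, was 8.76, 9.097, 8.899 and 8.91 in untreated all, 6.05, 5.98 and 5.85 in treated all and 2.197, 1.98 and 2.21 in PD-L1 high, so that both stimulated groups lay below untreated all and PD-L1 high lowest. Fbln2, a fibulin of the extracellular matrix, was 234, 232, 230.4 and 234 and 101, 105 and 103, and Sgk1, a kinase induced by glucocorticoids and growth factors, fell by 1.02. Wnt5b and the thiopurine methyltransferase gene Tpmt had log2 differences of -1.63 and -1.62.

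Lists of cell identity moved in part. Of 16 tested epithelial genes 8 rose and 4 fell (8 and 1 under median-ratio scaling), with a median of 0.02. The shares of all tested genes were 19.1% higher and 41.0% lower. Ehf, an epithelial ETS factor, rose by 1.13, Epcam by 0.47 and Cdh1 (E-cadherin) by 0.35, whereas Jup (plakoglobin) fell by 0.52. Jup was the only member called lower under median-ratio scaling, and the other falls are not named here. Of 18 mesenchymal genes 11 fell and 4 rose (8 and 5 under median-ratio scaling), with a median of -0.22. Fn1 (fibronectin) went from 1230.0 ± 32.8 to 765 ± 16.1 and Col1a1 from 6.97 ± 0.111 to 3.04 ± 0.2397, while Acta2 (smooth muscle actin) rose from 5.66 ± 0.334 to 12.7 ± 0.763. Col1a1, Acta2 and Pdgfra, which fell by 0.91, are also markers of fibroblasts. Of the other fibroblast markers, Col3a1 fell by 0.23 (adjusted p = 0.00087), Pdgfrb and Pdpn rose by 0.19 and 0.33 (adjusted p = 0.022 and 0.017), and Dcn, Lum, Fap and Postn were among those under the threshold for testing. The calls of Pdgfrb and Pdpn were lost without untreated libraries 3 and 4 (0.11 and 0.078). That of Pdgfrb was also lost without untreated library 4 (0.065) and without PD-L1 high library 1 or 3 (0.072 and 0.05), and that of Pdpn without untreated library 3 (0.051) and without PD-L1 high library 3 (0.076).

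Of 19 genes of transforming growth factor and bone morphogenetic protein signalling 13 fell and 2 rose (10 and 3 under median-ratio scaling), with a median of -0.25. Tgfb3, one of the ligands, fell by 0.49. Of 12 Wnt and Notch genes 9 fell and 3 rose, counts that median-ratio scaling left at 9 and 3. The Notch ligands Jag1 and Jag2 fell by 0.64 and 0.60 and the target Hey1 by 1.16, while the receptor gene Notch1 rose by 0.57. Among pancreatic duct and subtype genes 6 of 12 fell, near the 41.0% of all tested genes, among them Gata4 and Foxa1 by 0.46 and 0.49, and 1, Lcn2 (lipocalin 2), rose by 0.47.

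Metabolic and stress lists differed by small amounts, and their counts moved with scaling. The shares of all tested genes to set beside them, here and in the next paragraph, were 19.1% higher and 41.0% lower. Unfolded protein and integrated stress response genes rose in 15 of 24 and fell in 4, with Ddit3 (CHOP) up by 0.84, Ddit4 by 0.71 and the chaperone gene Hspa5 (BiP) by 0.57. Cholesterol synthesis genes gave 9 higher and 1 lower of 21, with 15 higher under median-ratio scaling. Insig1, which holds back sterol synthesis, rose by 0.83 and Msmo1 by 0.55. Of 20 fatty acid genes 11 rose and 5 fell, with Acadl, a mitochondrial dehydrogenase, up by 0.92 and the elongase gene Elovl6 down by 0.73.

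Glycolysis genes gave 10 higher and 4 lower of 21, and 15 and 1 under median-ratio scaling. Hk2, hexokinase 2, was 33.8, 29.8, 31.5 and 32.1 in untreated all, 124, 124 and 123 in treated all and 80.6, 79.5 and 76.8 in PD-L1 high, the widest difference of the list at 1.29 ± 0.039 (SE). Of 13 hypoxia targets 6 rose and 3 fell, led by Bnip3 at 0.81 and Ndrg1 at 0.72. Of 20 NRF2, iron and redox genes 12 rose and 5 fell. The metallothionein gene Mt2 rose by 0.91, the transferrin receptor gene Tfrc fell by 0.96 and Slc40a1 (ferroportin), the iron exporter, by 0.73. Lysosome and autophagy genes rose in 12 of 23 and fell in 5, led by Lamp2 at 0.81 and Npc2 at 0.61, and without untreated libraries 3 and 4 1 fell.

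Where the treated all libraries lay was read for every gene that differed by at least 2-fold. Of the 301 that rose, 269 had treated all and PD-L1 high means within 1.5-fold of each other on the log2(signal + 1) scale. In 21 genes PD-L1 high was at least 1.5-fold above treated all, among them Socs1, Nos2, Ccl5, Ifit1, Ifit3, Acta2 and Amy2a5, and in 11 treated all was at least 1.5-fold above PD-L1 high. Those 11 were Csf2, Cxcl1, Cxcl2, Gadd45b, Hk2, Il6, Lif, Nfkbia, Tnfaip3, Txnip and Snord15a. Snord15a, a small nucleolar RNA, was listed at 0 in every untreated library, at 51.9, 108 and 66.8 in treated all and at 0, 69.6 and 26.2 in PD-L1 high, and its call was lost without any single untreated library (adjusted p of 0.08 to 0.082) and without PD-L1 high library 2 or 3 (0.13 for each). Of the 92 that fell, 76 were within 1.5-fold, 10 were lower in PD-L1 high and 6, including Fos, Egr1 and Dusp1, lower in treated all. These are counts of means, and the difference between the stimulated groups is not tested here.

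The pancreatic acinar gene Amy2a5 (amylase) was 1.89, 4.24, 3.89 and 2.37 in untreated all, 4.75, 6.34 and 8.85 in treated all and 10.2, 14.2 and 12.04 in PD-L1 high, a difference from untreated all of 1.72 ± 0.24 (SE) (adjusted p = 0.00017). Prss2 (trypsin) rose by 0.96 at low signal. Cela1, an elastase gene of the same marker list, fell by 0.28 from 12.4 ± 0.831 to 10.02 ± 1.299 (adjusted p = 0.011), a call that was lost without untreated libraries 3 and 4 (0.067), without PD-L1 high library 1 (0.052) and under median-ratio scaling (0.091). Cpa1, Cpb1 and Cela2a were listed at 0 in every library. Amylase genes are near-identical copies, and whether their reads were shared is not described.

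Some of the genes that rose lay next to each other in the genome. On GRCm38 (mm10), runs of at least 4 genes that were at least 2-fold higher, with gaps of at most 500000 bases, numbered 13 and held 79 of the 301 genes, and runs of genes at least 2-fold lower numbered 0. The Gbp run on chromosome 3 (chr3:142496934-142638008) held 5 of 5 tested genes and that on chromosome 5 (chr5:105012513-105346476) 6 of 6, with log2 differences of 5.55 to 8.17 and 3.56 to 7.63. A run on chromosome 17 (chr17:33919478-35395630), the major histocompatibility complex, held 17 genes at least 2-fold higher among 61 tested, from 1.06 to 6.75. Called lower were 24 of the 61, near the 41.0% of all tested genes. A run on chromosome 15 (chr15:76948251-77736382) held 7 of 8 tested genes, 6 of them apolipoprotein L genes, a run of Ly6 genes (chr15:74979534-75112066) 4 of 4, and a run of IFI200 genes (chr1:173468485-174031755) 5 of 7. The run on chromosome 19 (chr19:34240336-34662981) joined Ifit1, Ifit3, Ifit3b and Ifit1bl1 with Fas, Ch25h and Acta2, 7 of 9 tested. Close copies within a run may share reads, so its genes are not separate observations. Many genes of the Gbp runs were near 0 in untreated cells and passed the threshold for testing only through the stimulated libraries. Neighbours near 0 that did not rise were not tested, so these counts describe the tested genes only. Each span was drawn from the first to the last gene of its run, so high shares such as 5 of 5 follow largely from that definition. How often equally many tested genes would form such runs was not counted. Runs of genes at least 2-fold lower were sought among only 92 genes.

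Promoter letters of the genes that rose were set beside those of all tested genes. The ISRE core was in 38.1% of 118 windows of the genes at least 4-fold higher, in 16.5% of 164 windows of those 2-fold to 4-fold higher, in 4.40% of 91 windows of those at least 2-fold lower and in 3.14% of the 11752 windows of tested genes. GAS letters were in 17.8%, 9.15%, 6.59% and 6.76% of the same windows. An NF-kB site, GGG and TTCC with any 3 bases between them, was in 14.4%, 11.6%, 3.30% and 6.36%. Windows were found for 99 of 138, 127 of 163, 67 of 92 and 9233 of 11487 genes. The GTPase genes with a window, 11 with 12 windows, held the ISRE core in 10 and GAS in 6 of the 12, and several of these promoters come from tandem copies. The motifs overlap in places, and a match is a description of the letters only.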

How the data were processed

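Bulk RNA-seq libraries of PDAC cells were analysed from 1 table that the authors deposited. Its values are a normalized signal per gene for 10 libraries, deposited by the authors without a named unit. Libraries add up to between 698396 and 715500 through that normalization, which does not measure depth. The submitters' processing notes name CASAVA 1.7 and the build mm10, while aligner, counting method and annotation are not given there or in the labels. Depth is therefore unknown, and no count test was possible. Samples were grouped by their titles. Of 25507 entries 695 had no value, entries sharing a symbol (52 symbols) were added up, and 11487 of 24755 genes averaged 1 or more over all 10 libraries. Values were transformed as log2(signal + 1), with a pseudocount of 1, and fitted with limma 3.58.1 (intensity trend, robust variances) in R 4.3.3 with 1 mean per group over all 10 libraries. Calls used a 2-sided, Benjamini-Hochberg adjusted p under 0.05 over all tested genes, and "n-fold" thresholds refer to the log2(signal + 1) scale, while ratios are of mean signal. Gene coordinates and promoters come from RefSeq, the promoters on GRCm38.p6. Gene lists, named genes and the comparison itself were chosen with earlier results of these data known. Named genes were 15 of the IFNγ axis, the 12 largest rises and 12 largest falls that were called with all libraries and without untreated libraries 3 and 4 with groups that do not overlap (predicted genes, clones and pseudogenes left out), up to 4 called members of each list with the largest difference, the 5 of highest signal in each direction among those at least 2-fold changed, and up to 5 per direction where the treated all mean lay at least 1 log2 unit outside the other means. Further members were named after their values were seen, to complete families. Some genes that this rule chose are not reported here. Alternatives were no filter, a mean of at least 5, a pseudocount of 0.1, median-ratio and upper-quartile scaling, fewer libraries, no trend, a replicate block, stricter thresholds and leaving out each library.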

Additional observations from a re-analysis of the deposited data

Results flagged for a closer look

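In 4 of 216 named genes 1 of the 4 untreated libraries lay apart from the other 3, by a gap that took up more of the group's range than Dixon's 95% critical value for 4 samples. Among 4 independent values chance gives such a gap in about 1 of 20 groups. The untreated libraries are not taken as independent, so that rate does not apply to them and no expected number is given. Ciita was 0, 0, 0.0223 and 0 in untreated all, and the gap was 1.0 of the range. Ifit1 was 0, 0.110, 0 and 0, with a gap of 1.0. Where 3 of the 4 values are 0, any other value gives a gap of 1.0. The flags of Ciita and Ifit1 therefore follow from signal at the floor. Igtp was 3.72, 3.74, 4.001 and 3.74, with a gap of 0.935, and Psmb8 was 5.95, 5.57, 5.98 and 5.95, with a gap of 0.928. In each of these genes every PD-L1 high library lay above the highest untreated one, with lowest values of 4.16, 6.18, 694 and 728.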

How the results depend on the processing

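No named gene that passed the test changed sign under any alternative run, but 5 that did not pass it changed sign under some. Under median-ratio scaling Aim2 and Rfxap went to 0.09, Jak1 to 0.04 and Canx to 0.03 on the log2 scale, and under upper-quartile scaling Aim2 and Rfxap went to 0.05. With a replicate block Aim2 gave 0.0 and Rfxap 0.06, and Rfxap gave 0.0 in both fits without untreated libraries 3 and 4. Leaving out each library gave -0.07 to 0.04 for Aim2, -0.11 to 0.07 for Rfxap and -0.02 to 0.07 for Cdkn1a, the negative value of the last without PD-L1 high library 3. Requiring at least 2-fold reduced the genes called higher to 301, those called lower to 92 and the list members called from 557 to 153. A fit of only the PD-L1 high libraries and untreated libraries 1 and 2 called 3136 genes lower in place of 4711. The genes at least 2-fold lower numbered 190 with a pseudocount of 0.1 and 60 with a mean signal of at least 5, in place of 92, the first because a smaller pseudocount widens differences of low genes and the second because fewer genes were tested. Leaving out each library in turn gave 1967 to 2117 genes higher, 4167 to 4573 lower, 298 to 310 at least 2-fold higher, 86 to 103 at least 2-fold lower and 538 to 556 list members. The other alternatives moved these counts by less than 1.5 times. Deviations of same-numbered untreated and PD-L1 high libraries from their group means correlated at -0.181, 0.012 and -0.153. Differently numbered libraries gave -0.115 to 0.168. Deviations from a mean of so few libraries are tied to each other, so these values cannot decide whether the numbers pair the libraries. A replicate block gave 2024 genes higher, 4171 lower, 311 and 84 at 2-fold or more and 542 list members. Of the 209 named genes called, 9 lost their call without untreated libraries 3 and 4, 5 under median-ratio scaling and 2 under upper-quartile scaling. Of 82 list counts 20 moved by over 1.5 times under median-ratio scaling and 10 without untreated libraries 3 and 4. The unit, the depth and the counting of shared reads are not known, so the precision of low genes cannot be stated.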
